A study of Mus musculus with 34 samples.

Results

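Heat shock proteins and their J domain partners, encoded by the Hsp and Dnaj genes, were followed in mouse N2A neuroblastoma cells treated with small molecules that change the splicing of neuronal microexons. The members were the genes of the expression table whose symbol marks a protein of the Hspa, Hspb, Hspd, Hspe, Hsph, Hsp90, Dnaja, Dnajb or Dnajc families and whose level exceeded 1 RPKM (reads scaled to gene length and library size) in DMSO or with any compound. Of 52661 genes, 83 names matched, of which 11 were pseudogene names and were left out, and 61 of the other 72 passed the limit. By the compartment in which the protein mainly works, 32 of the 61 were placed in the cytosol or nucleus, 13 in the endoplasmic reticulum (ER) and 8 in mitochondria, and 8 were not assigned. Of the 61, 56 were over the limit in DMSO. The other 5 (Dnajc28, Hspa12b, Dnaja4, Dnajb13 and Hspb7) entered only through a compound that was higher than DMSO, so for them a rise was built into the choice, and their values are a description.

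Molecular chaperones help other proteins fold and keep unfolded chains from clumping. Hsp70 proteins (the Hspa family) bind and release unfolded stretches in a cycle driven by ATP, J domain proteins (the Dnaj families) bring them their clients and speed up ATP hydrolysis, and Hsp110 proteins exchange the nucleotide. Hsp90 acts later, on kinases and receptors that are nearly folded, and Hspd1 with its lid Hspe1 forms the folding chamber of mitochondria. Cells raise cytosolic chaperones through the heat shock factor Hsf1 and ER chaperones through the unfolded protein response, and the programmes act on different promoter motifs.

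N2A is a mouse neuroblastoma line that grows in culture, so every library came from 1 cell line and not from tissue, and the labels give no genotype beyond it. Cells received a compound or the vehicle alone for 24 h, with the same final share of DMSO in all wells, and polyA+ RNA was sequenced in 34 libraries. DMSO had 3 libraries, the histone deacetylase (HDAC) inhibitors Vorinostat (2.5 uM), CI-994 (5 uM), BRD4884 (10 uM) and BRD6688 (10 uM) had 2 each, and the remaining 23 compounds had 1. The study groups 17 of the 27 compounds as activators and 10 as inhibitors of microexon splicing. Most labels give a plate position in place of a compound name, and names and doses then come from the compound list of the study. Dose differed between compounds, and values are set side by side across doses without a ranking of potency.

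The readouts were of 2 kinds. The deposited RPKM table holds 1 value per condition, merged over replicates, so ratios to DMSO from it are descriptions with no test. The per-library splicing table holds reads over exon junctions, and the spliced junction reads of a gene, summed over its introns and scaled to a library total of 1000000 (junction RPM), gave a replicate error. That measure covered 52 of the 61 members, and 49 had the mean of at least 20 reads that the test needed. The libraries held between 17670356 and 40603763 junction reads (median 26309644). The spread between libraries of a group (median SD over well-covered genes on the log2 scale) was 0.06 to 0.076 in all groups except Vorinostat, whose libraries stood apart at 0.165. The test takes 1 spread per gene from all replicated groups, so standard errors and p-values with Vorinostat understate the distance between its own libraries.

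N2A identity was checked against 12 markers of the noradrenergic neuroblastoma lineage. In DMSO 11 of the 12 were over 1 RPKM and their summed level was 1611 RPKM. The level of Th, which makes catecholamines, was at 1.57 RPKM. None of 12 markers of glia, blood, endothelium, fibroblasts, epithelium, liver and heart was over 1 RPKM in DMSO, where they summed to 1.89 RPKM.

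The promoters of several members carry the motifs of these programmes. Of the 7 members with a searched motif, 1 window each is shown for 5, because these genes recur in the results. Hsph1 and Dnajb6 each have 2 overlapping windows that hold the motif, and the match in the Hsph1 window shown begins 36 bases after the start of transcription. Sequences are RefSeq windows of 300 bases, 250 before and 50 after the start of transcription, on GRCm38.p6 and written 5′ to 3′ on the strand of the gene. A run of 3 inverted GAA units, the form of a heat shock element, was searched as GAANNTTCNNGAA on both strands, and the spacing of the ER stress element as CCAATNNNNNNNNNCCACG on both strands. Capitals mark the matches, and overlapping matches are merged. The Hsph1 window (chr5:149636287-149636586, minus strand), the Hspd1 window (chr1:55087883-55088182, minus strand), the Hspa5 window (chr2:34771840-34772139, plus strand), the Hsp90b1 window (chr10:86705395-86705694, minus strand) and the Dnajc3 window (chr14:118937682-118937981, plus strand) read as follows.
Hsph1: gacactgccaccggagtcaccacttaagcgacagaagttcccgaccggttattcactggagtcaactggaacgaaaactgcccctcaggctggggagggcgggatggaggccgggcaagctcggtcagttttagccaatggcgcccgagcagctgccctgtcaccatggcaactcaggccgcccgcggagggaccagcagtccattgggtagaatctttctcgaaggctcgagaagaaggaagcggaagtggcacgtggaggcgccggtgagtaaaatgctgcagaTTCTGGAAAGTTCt
Hspd1: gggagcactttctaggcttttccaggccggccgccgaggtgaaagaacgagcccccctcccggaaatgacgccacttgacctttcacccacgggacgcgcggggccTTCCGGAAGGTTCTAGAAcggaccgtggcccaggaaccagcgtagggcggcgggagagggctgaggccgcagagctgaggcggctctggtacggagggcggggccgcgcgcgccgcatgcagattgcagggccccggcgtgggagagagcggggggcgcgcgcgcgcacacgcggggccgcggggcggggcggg
Hspa5: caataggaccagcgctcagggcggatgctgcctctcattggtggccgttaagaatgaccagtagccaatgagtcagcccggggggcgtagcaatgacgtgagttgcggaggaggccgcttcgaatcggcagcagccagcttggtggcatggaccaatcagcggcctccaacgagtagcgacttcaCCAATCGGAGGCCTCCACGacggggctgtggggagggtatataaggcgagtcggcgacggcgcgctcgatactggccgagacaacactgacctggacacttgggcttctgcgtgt
Hsp90b1: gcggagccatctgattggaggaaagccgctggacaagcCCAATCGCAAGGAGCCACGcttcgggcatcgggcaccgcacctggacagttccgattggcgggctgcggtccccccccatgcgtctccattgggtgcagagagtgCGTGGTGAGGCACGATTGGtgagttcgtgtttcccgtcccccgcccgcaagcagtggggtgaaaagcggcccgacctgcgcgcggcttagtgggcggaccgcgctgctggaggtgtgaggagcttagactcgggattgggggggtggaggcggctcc
Dnajc3: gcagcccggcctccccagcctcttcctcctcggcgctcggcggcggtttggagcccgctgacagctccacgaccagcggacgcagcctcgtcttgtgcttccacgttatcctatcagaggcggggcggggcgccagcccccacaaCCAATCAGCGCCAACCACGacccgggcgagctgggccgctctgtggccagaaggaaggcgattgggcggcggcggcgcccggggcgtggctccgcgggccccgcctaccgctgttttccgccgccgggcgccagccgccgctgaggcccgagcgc
Of 32851 windows of this length in the table, 198 (0.603%) held the heat shock motif and 39 (0.119%) the ER stress motif. A gene can have more than 1 window, so these shares count windows, whereas the members are counted as genes. Of the 61 members 48 had a window, and 4 of them held the heat shock motif: Hsph1, Dnajb6, and the neighbours Hspd1 and Hspe1, which are transcribed in opposite directions from 1 shared stretch with 2 overlapping matches. The ER stress motif lay in the windows of 3 members, all of the ER: Hspa5, Hsp90b1 with 2 matches, and Dnajc3. A match is a string of letters and not a measured binding site, and no match means only that these letters are not in the window.

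In DMSO the members ranged widely in level. Hsp90ab1, the constitutive cytosolic Hsp90, stood at 4336 RPKM, followed by the constitutive Hsp70 Hspa8 at 1906 RPKM, the second cytosolic Hsp90 Hsp90aa1 at 1305 RPKM and the mitochondrial chaperonin Hspd1 at 1086 RPKM. Its lid Hspe1 was at 514 RPKM, the ER Hsp90 Hsp90b1 at 476 RPKM, the mitochondrial Hsp70 Hspa9 at 436 RPKM and the ER Hsp70 Hspa5 (BiP) at 296 RPKM. The most abundant J domain protein was Dnaja1 at 271 RPKM, while Dnajb1, a heat-inducible J protein, was at 34 RPKM. In all, 19 members exceeded 100 RPKM and 15 were under 5 RPKM. Hspd1 and Hspe1 have processed copies elsewhere in the genome, and how reads were shared with those copies was not tested.

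**Figure D1:**
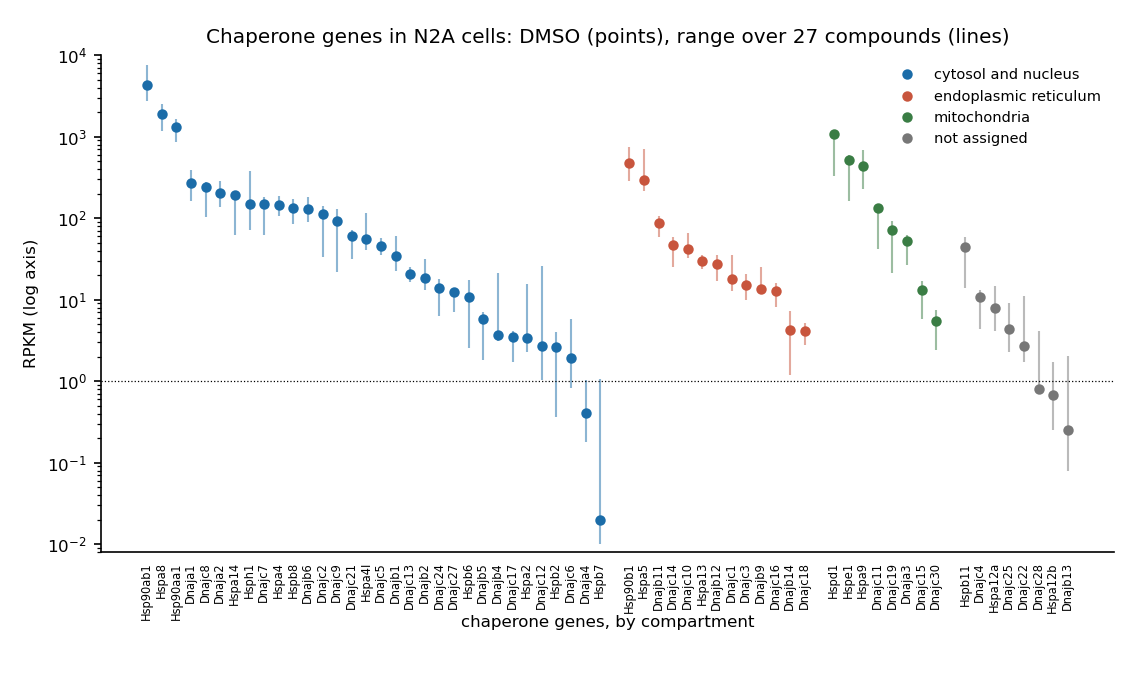
Levels of the 61 members in DMSO (RPKM, log axis), grouped by compartment, each with its range over the 27 compounds as a vertical line and the limit of 1 RPKM dotted. Mitochondrial members had the highest median at 103 RPKM, above cytosolic members at 50.2 RPKM and ER members at 27.6 RPKM, and unassigned members had the lowest at 3.56 RPKM.

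The heat-inducible Hsp70 pair was nearly silent in all conditions. Hspa1a was at 0.01 RPKM in DMSO and reached at most 0.1 RPKM with any compound, and Hspa1b was at 0.01 RPKM and reached at most 0.54 RPKM. The small heat shock protein Hspb1 was listed at 0 in DMSO and reached at most 0.15 RPKM. The other 8 names under the limit were Hspa1l, Hspb3, Hspb9, Dnajb3, Dnajb7, Dnajb8, Dnajc5b and Dnajc5g, and the highest value of any of them was 0.92 RPKM, for Hspb9. Just inside the limit were Dnaja4, with a highest value of 1.02 RPKM, and Hspb7, with a highest value of 1.07 RPKM.

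Few pairs of a member and a compound differed by more than 2-fold in RPKM. Over the 1536 pairs with either value over 1 RPKM, 33 (2.15%) were higher and 45 (2.93%) lower than DMSO by that much, against 5.32% and 4.57% of such pairs over all genes. The higher pairs include 3 of Dnajc28, 2 of Dnajb13 and 1 of Hspb7, for which a rise was built into the choice. At least 1 compound past 2-fold was found for 29 of the 61 members (47.5%), where 65.4% of all genes over the limit had one. The number was 16 of 32 in the cytosol or nucleus, 2 of 13 in the ER, 6 of 8 in mitochondria and 5 of 8 unassigned. The abundant cytosolic chaperones Hsp90ab1, Hspa8, Hsp90aa1 and Dnaja1 had none. Hsp90ab1 ranged from 2773 to 7655 RPKM, and Hspa8 from 1167 to 2496 RPKM.

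**Figure D2:**
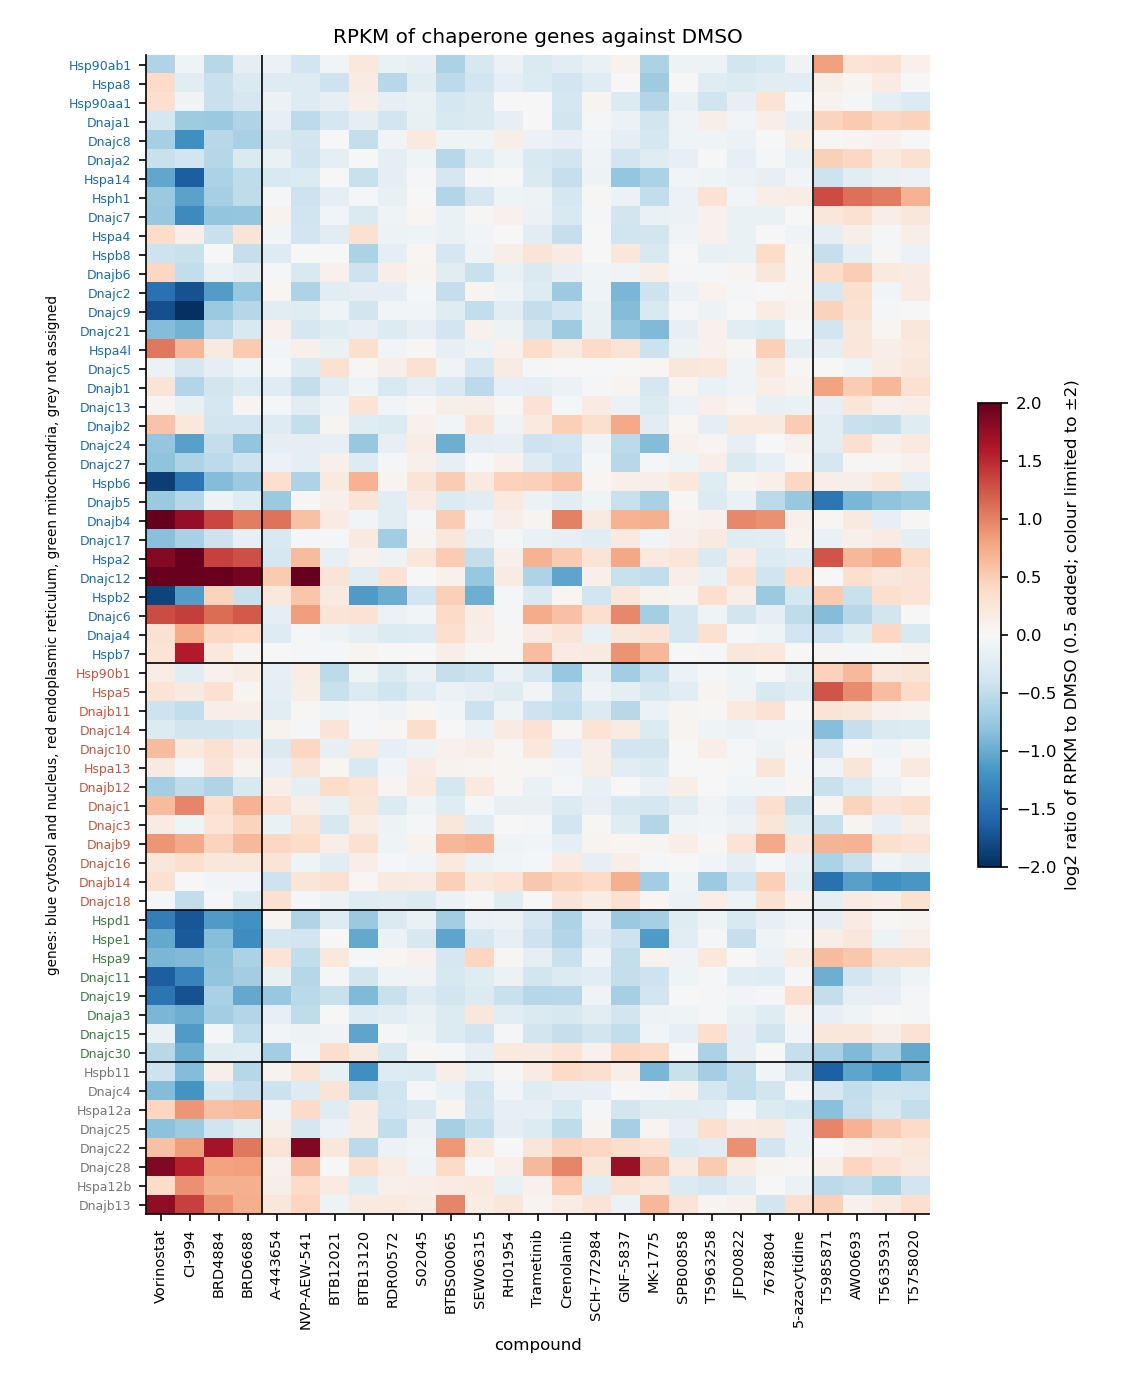
Log2 ratio of RPKM to DMSO (0.5 RPKM added to both) for the members in rows, grouped by compartment, and the 27 compounds in columns, with colour limited at 2 in either direction. The 4 HDAC inhibitors and T5985871 hold most of the strong colours, from 3.04 for Dnajc12 with Vorinostat to -2.08 for Dnajc9 with CI-994.

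HDAC inhibitors keep histones acetylated and change the transcription of a large part of the genome, and the question put to them was whether chaperones of the 3 compartments changed alike. They did not move as 1 block: ER members mostly rose, mitochondrial members fell, and cytosolic members split. Of the 49 members tested, 23 rose and 20 fell with Vorinostat, against 40.3% and 35.6% of all 10689 genes tested. With CI-994 17 rose and 20 fell (40.1% and 36.7% of all genes), with BRD4884 18 rose and 14 fell (40.0% and 20.2%), and with BRD6688 17 rose and 14 fell (39.8% and 25.7%). The total number of members called was thus near the background of the treatment. Without the 3 tested members that entered through a compound (Hspa12b, Dnaja4 and Dnajb13), 20, 14, 15 and 14 of 46 rose in that order of compounds and the falls were the same in number, where 36.5%, 36.3%, 36.2% and 36.7% of the genes over 1 RPKM in DMSO rose. The 4 comparisons share the DMSO libraries, and in bulk RNA fewer cells of a type and less RNA per cell cannot be told apart. The calls come from limma on log2 junction RPM with Benjamini-Hochberg adjustment over all genes, at an adjusted p under 0.05.

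Most ER chaperones rose. Of 13 ER members, 10 rose and 1 fell with Vorinostat, 8 rose and 0 fell with CI-994, 9 rose and 1 fell with BRD4884, and 8 rose and 0 fell with BRD6688. Over all genes 40.3%, 40.1%, 40.0% and 39.8% rose in that order. The median log2 change of the ER members was 0.58, 0.39, 0.46 and 0.35 in that order, against medians over all genes of 0.05, 0.04, 0.15 and 0.13. With the libraries scaled by their median ratio the ER counts were 10, 8, 9 and 6 up and 1, 0, 1 and 2 down, so the BRD6688 count was the one that shifted. Under that scaling 4186, 4228, 3444 and 3538 of all 10689 genes rose in the same order, and 3935, 3969, 3084 and 3377 fell.

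Hsp90b1, the Hsp90 of the ER lumen, had 1939, 1838 and 1964 junction RPM in the DMSO libraries. It had 2592 and 2982 with Vorinostat, 2243 and 2337 with CI-994, 2586 and 2548 with BRD4884, and 2637 and 2439 with BRD6688. All 8 treated libraries lay above the 3 DMSO libraries, and the log2 change was 0.54 ± 0.07 (SE, limma adjusted p = 7.3e-06) with Vorinostat and 0.26 ± 0.07 (adjusted p = 0.0032) with CI-994. The deposited RPKM of Hsp90b1 was 476 in DMSO and 528, 407, 504 and 528 with Vorinostat, CI-994, BRD4884 and BRD6688, so with CI-994 it was below DMSO.

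Hspa5, the ER Hsp70, which binds the sensors of the unfolded protein response, separated the inhibitors. Its DMSO libraries had 748, 729 and 711 junction RPM. Vorinostat gave 1257 and 975, CI-994 949 and 960.4, BRD4884 1178 and 1145, and BRD6688 789.6 and 758. The log2 change was 0.60 ± 0.08 (adjusted p = 2.3e-05) with Vorinostat and 0.67 ± 0.08 (adjusted p = 1.8e-05) with BRD4884, but 0.08 ± 0.08 (adjusted p = 0.39) with BRD6688, whose libraries both still lay above DMSO.

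The J proteins of the ER differed among themselves. Dnajb9, which serves ER-associated degradation, had 7.61, 6.30 and 5.25 junction RPM in DMSO and 16.9 and 21.8 with Vorinostat, a log2 change of 1.60 ± 0.19 (adjusted p = 4.2e-06). With BRD4884 it had 10.1 and 11.3, a log2 change of 0.76 ± 0.19 (adjusted p = 0.0035). Dnajc3, a co-chaperone of Hspa5 that restrains the eIF2 alpha kinases, had 50.3, 48.5 and 50.3 in DMSO and 98.2 and 94.9 with BRD6688, where its log2 change was 0.96 ± 0.12 (adjusted p = 1.5e-05). Dnajc1, a membrane-bound J protein, rose by 1.23 ± 0.10 on the log2 scale with CI-994 (adjusted p = 1.1e-07). Dnajc10, a disulfide reductase with a J domain, had 96.9, 92.5 and 92.2 in DMSO and between 119.5 and 146 in the 8 HDAC inhibitor libraries, and it rose with each inhibitor by 0.37 to 0.61. Hspa13, a small ER-associated Hsp70, also rose with each, by 0.35 to 0.65, but its BRD6688 call was lost without either BRD6688 library (adjusted p = 0.052 and 0.055) and with the libraries scaled by their median ratio (adjusted p = 0.062). Dnajb11, another Hspa5 partner, rose with BRD4884 (0.46 ± 0.08) and BRD6688 (0.28 ± 0.08), the latter not past the test with the median ratio scaling (adjusted p = 0.058), and its change was -0.06 with Vorinostat and -0.11 with CI-994, neither past the test. Dnajb12, a J protein of the ER membrane, fell with Vorinostat (-0.30 ± 0.07, adjusted p = 0.0023) and BRD4884 (-0.32 ± 0.07, adjusted p = 0.0025), and was the ER member that fell. Dnajc14, another membrane J protein, had changes between -0.22 and -0.05, none past the test, while Dnajb14 and Dnajc18 rose, of the 4 inhibitors, with Vorinostat only (0.64 ± 0.20 and 0.47 ± 0.10). Dnajb14 had 13.5 and 19.5 junction RPM with Vorinostat against 11.6, 7.87 and 12.3 in DMSO. Its call was lost without Vorinostat replicate B. For ER members the RPKM readout was less one-sided: their median log2 ratio was 0.18, -0.04, 0.23 and 0.12 in the same order of compounds, and 0.54, 0.40, 0.50 and 0.31 once each compound was centred on the median of genes over 5 RPKM.

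**Figure D3:**
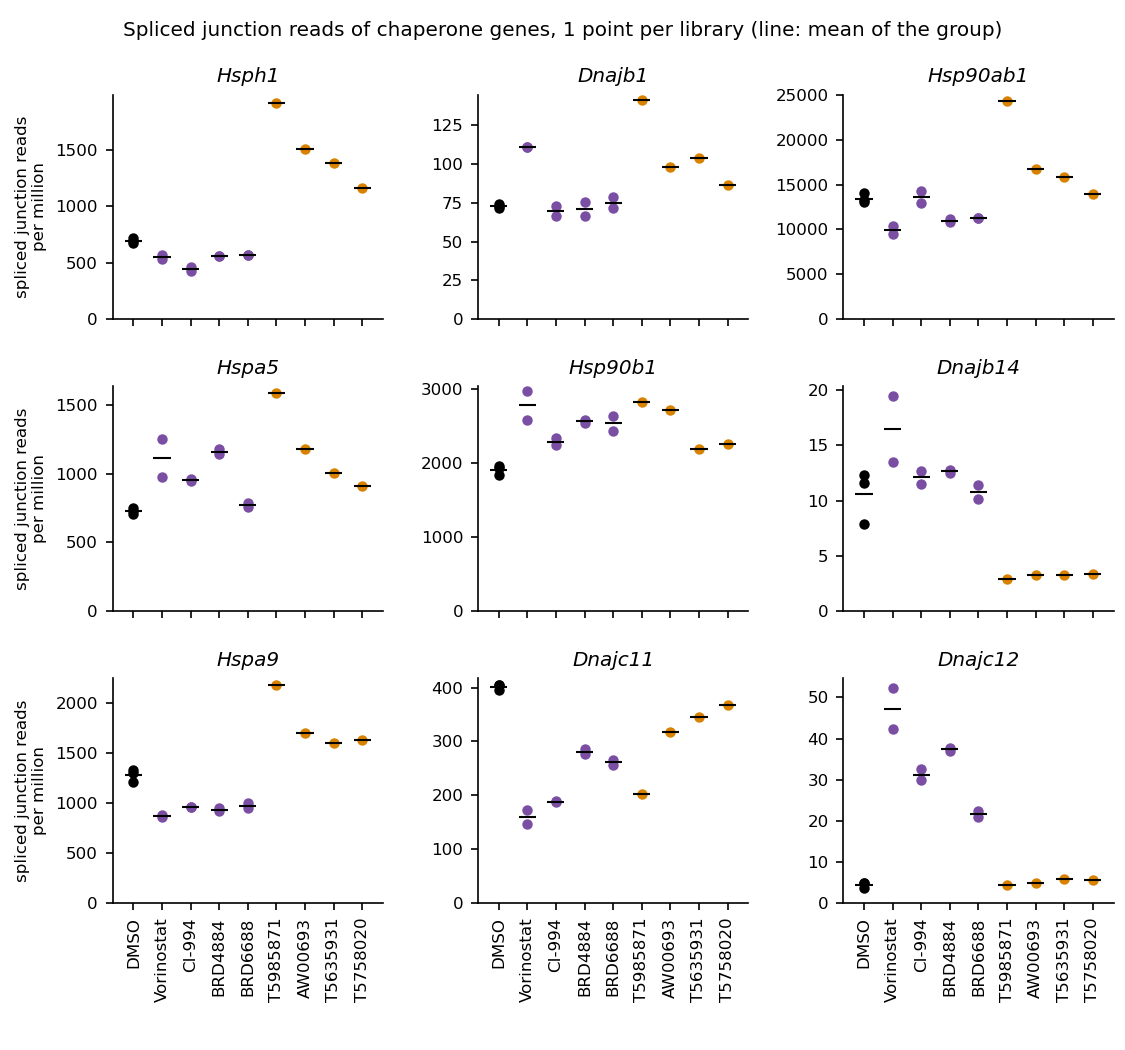
Junction RPM (vertical axes, linear from 0) of 9 members in DMSO, the 4 HDAC inhibitors and 4 inhibitors of microexon splicing, with 1 point per library and the group mean as a line. The HDAC inhibitor libraries of Hsp90b1 lie above the 3 DMSO libraries, those of Hspa9 and Dnajc11 lie below them, and the T5985871 library is the highest for Hsph1, at 1920.

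Mitochondrial chaperones fell with HDAC inhibitors. Hspd1 was at 1086 RPKM in DMSO, 413 with Vorinostat, 331 with CI-994, 497 with BRD4884 and 469 with BRD6688, and its lid Hspe1 was at 514, 254, 160.4, 284 and 216 RPKM. Dnajc19, a J protein of the inner membrane tied to protein import, was at 72.2 RPKM in DMSO and 25.9, 21.1, 45.9 and 35.2 with the same compounds. These 3 genes have no intron in the junction table, so the values stand without a test. In RPKM 4 of the 8 mitochondrial members were lower than DMSO by more than 2-fold with Vorinostat, 5 with CI-994, 1 with BRD4884 and 3 with BRD6688, and none was higher. Over all genes, RPKM was lower by more than 2-fold for 19.7% with Vorinostat, 21.9% with CI-994, 4.62% with BRD4884 and 6.89% with BRD6688. Of all members, 9, 15, 2 and 3 were lower by that much.

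The RPKM values of HDAC inhibitors were shifted as a whole. The median log2 ratio of genes over 5 RPKM was -0.36 with Vorinostat, -0.44 with CI-994, -0.27 with BRD4884 and -0.19 with BRD6688. The median of the 8 mitochondrial members was -0.97, -1.23, -0.74 and -0.66, and after centring -0.60, -0.79, -0.48 and -0.48. The direction thus held for the group in both scales, but Hspd1 with BRD4884, Hspe1 with Vorinostat and Dnajc19 with BRD6688 came within 2-fold when centred.

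The junction test covered 4 mitochondrial members, of which 3 fell with Vorinostat, 4 with CI-994, 3 with BRD4884 and 3 with BRD6688, and none rose. Over all genes 35.6%, 36.7%, 20.2% and 25.7% fell in that order. Hspa9, the mitochondrial Hsp70 (mortalin), had 1299.9, 1215 and 1327 junction RPM in DMSO. It had 861 and 885 with Vorinostat, 961 and 965 with CI-994, 923 and 946 with BRD4884, and 996 and 951 with BRD6688, all below DMSO, for log2 changes of -0.55 ± 0.06 (limma adjusted p = 1e-06), -0.41 ± 0.06 (1.8e-05), -0.45 ± 0.06 (1.5e-05) and -0.40 ± 0.06 (5.2e-05). Dnajc11, a J protein of the complex that shapes cristae, had 404, 404 and 395 in DMSO, 173 and 146 with Vorinostat and 187 and 189 with CI-994. It fell by 1.33 ± 0.07 on the log2 scale with Vorinostat (adjusted p = 1.8e-09), and by 0.51 ± 0.07 with BRD4884 (adjusted p = 3.6e-05). Dnaja3, the mitochondrial J partner of Hspa9, fell with each inhibitor, by 0.39 to 0.67 on the log2 scale. Dnajc15 fell with CI-994 only (-0.61 ± 0.13, adjusted p = 0.00079), and its changes with the other three were 0.17, 0.19 and -0.25.

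**Figure D4:**
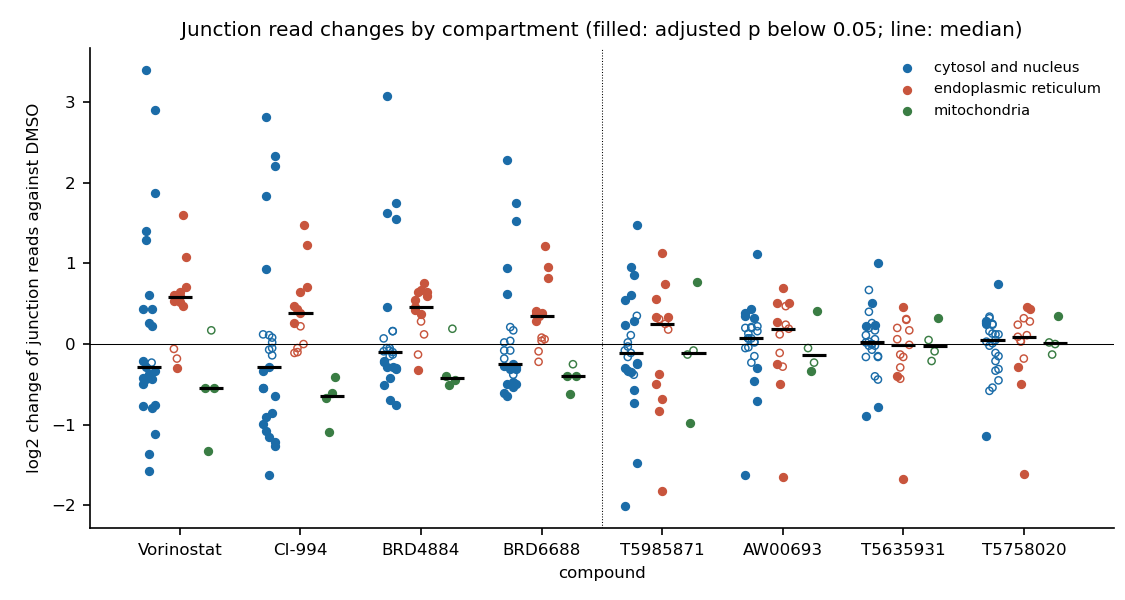
Log2 change of junction RPM for each tested member by compartment and compound, filled where the adjusted p is under 0.05, with the median of the compartment as a line. With the 4 HDAC inhibitors the ER medians lie between 0.35 and 0.58 and the mitochondrial medians between -0.64 and -0.39.

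Of the cytosolic and nuclear members more fell than rose with each HDAC inhibitor, and some of those that rose did so steeply. Of 25 tested, 10 rose and 14 fell with Vorinostat, 5 rose and 13 fell with CI-994, 5 rose and 10 fell with BRD4884, and 5 rose and 11 fell with BRD6688. Over all genes 40.3% rose and 35.6% fell with Vorinostat, and 40.1% and 36.7% with CI-994. With BRD4884 the shares were 40.0% and 20.2%, and with BRD6688 39.8% and 25.7%. In RPKM, 7 members of any compartment were higher by more than 2-fold with Vorinostat, 7 with CI-994, 5 with BRD4884 and 5 with BRD6688, where 16.5%, 17.4%, 10.5% and 8.73% of all genes were. Of these, 5, 5, 4 and 4 were cytosolic members. The higher members include Dnajc28 and Dnajb13 with Vorinostat and CI-994, and the cytosolic Hspb7 with CI-994. For these a rise was built into the choice. Dnaja4, at 0.41 RPKM in DMSO, is counted among the junction rises with each inhibitor, although for it a rise was built into the choice.

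The steepest rise was that of Dnajc12, a co-chaperone of the aromatic amino acid hydroxylases that make dopamine and serotonin. It had 3.72, 4.84 and 4.85 junction RPM in DMSO. Vorinostat gave 52.2 and 42.2, CI-994 32.5 and 29.8, BRD4884 37.0 and 37.7, and BRD6688 21 and 22.4. All 8 treated libraries lay above DMSO, and the log2 changes were 3.40 ± 0.16 (limma adjusted p = 8.7e-10), 2.81 ± 0.16 (5.8e-09), 3.07 ± 0.16 (1.2e-08) and 2.28 ± 0.16 (2e-07). In RPKM it went from 2.68 in DMSO to 25.7 with Vorinostat.

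Dnajb4, a close relative of Dnajb1, had 1.97, 2.33 and 2.30 junction RPM in DMSO and 17.1 and 16 with Vorinostat, and rose with each inhibitor by 1.52 to 2.90 on the log2 scale. Dnajc6 (auxilin), which strips clathrin from vesicles in neurons, had 11.3, 11.2 and 10.2 in DMSO and 50.4 and 50.8 with CI-994, and rose by 1.55 to 2.21. Hspa4l, an Hsp110 family member, had 221, 219 and 222 in DMSO and 529 and 639.7 with Vorinostat, where it rose by 1.40 ± 0.08 (adjusted p = 2.6e-09). It rose less with the others, by 0.46 to 0.93. The Hsp70 gene Hspa2, for which no junction value was had, was at 3.38 RPKM in DMSO and at 13.3, 15.7, 9.49 and 9.02 RPKM with Vorinostat, CI-994, BRD4884 and BRD6688. Among unassigned members, the distant Hsp70 relative Hspa12a had 30.5, 36.6 and 31.7 in DMSO and 78.7 and 78.5 with CI-994, and rose with each inhibitor by 0.75 to 1.26. Dnajc22, another unassigned member, was at 2.72 RPKM in DMSO and at 4.31, 5.24, 9.72 and 6.22 RPKM. Its junction reads rose with BRD4884 (1.83 ± 0.26, adjusted p = 5.5e-05), BRD6688 (1.03 ± 0.26, adjusted p = 0.004) and CI-994 (0.93 ± 0.26, adjusted p = 0.0058, and 0.071 without CI-994 replicate A), and its change with Vorinostat was 0.34.

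The 5 members that entered through a compound are given as levels, with no test. Dnajb13, a J protein of sperm and cilia, was at 0.25 RPKM in DMSO and at 2.05 with Vorinostat and 1.42 with CI-994, its values over the limit. Dnajc28 was at 0.79 RPKM in DMSO and at 4.15 with Vorinostat and 3.3 with CI-994, and Hspa12b at 0.67 and at 1.0 and 1.7. Dnaja4 and Hspb7 passed the limit with CI-994 alone.

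The falling cytosolic members included proteins that serve ribosomes and histones. Dnajc2, a J protein bound to the ribosome, had 278, 242 and 273 junction RPM in DMSO, 116 and 127 with Vorinostat and 112 and 114 with CI-994. Its log2 change was -1.22 ± 0.08 with CI-994 (limma adjusted p = 1e-08) and -0.76 ± 0.08 with BRD4884 (adjusted p = 2.4e-06). Hspa14, the Hsp70 that joins Dnajc2 on the ribosome, fell by 1.27 ± 0.07 on the log2 scale with CI-994 (adjusted p = 5.3e-09), and by 0.31 ± 0.07 with BRD4884 and with BRD6688. Dnajc9, a histone chaperone, had 153, 135 and 153 in DMSO and 47.3 and 48.4 with CI-994, and its log2 change was -1.62 ± 0.09 (adjusted p = 2.9e-09). With BRD6688 it had 121 and 116, a log2 change of -0.31 ± 0.09 (adjusted p = 0.0077, and 0.064 without BRD6688 replicate B). Dnajc7, a J protein that works between Hsp70 and Hsp90, fell with each inhibitor, by 0.42 to 0.99. Hspb6, a small heat shock protein of muscle, had 5.84, 5.82 and 6.6 in DMSO and 2.26 and 1.82 with Vorinostat, the steepest fall of a member with that compound (-1.57 ± 0.26, adjusted p = 0.00011). It fell by 1.15 ± 0.26 with CI-994 (adjusted p = 0.0013). With BRD4884 the change of -0.69 ± 0.26 (adjusted p = 0.035) lost its call without BRD4884 replicate A (adjusted p = 0.31) or any 1 DMSO library. The related Hspb2, which had no junction value, was at 2.59 RPKM in DMSO, 0.36 with Vorinostat, 0.92 with CI-994, 3.72 with BRD4884 and 1.78 with BRD6688.

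The members of the heat-inducible list, which also holds the constitutive Hsp90ab1 and Hspa8, did not rise together with HDAC inhibitors. Hsph1, the inducible Hsp110, had 722, 674 and 691 junction RPM in DMSO, 536 and 565 with Vorinostat and 426 and 464 with CI-994, and fell with each inhibitor, by 0.29 to 0.64 on the log2 scale. Dnajb1 had 71.7, 74.2 and 72.6 in DMSO and 111 in both Vorinostat libraries, where it rose by 0.61 ± 0.08 (adjusted p = 1.5e-05). With CI-994, BRD4884 and BRD6688 its log2 changes were -0.07, -0.05 and 0.04, none past the test. Hsp90ab1 fell with Vorinostat (-0.43 ± 0.06), BRD4884 (-0.29 ± 0.06) and BRD6688 (-0.25 ± 0.06), and its change with CI-994 was 0.02 ± 0.06 (adjusted p = 0.80). The RPKM of Hspa8 was 1906 in DMSO, 2496 with Vorinostat and 1646 with CI-994, and that of Hsp90aa1 1305, 1657 and 1247.

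Levels of markers of other cells moved with these treatments. The 12 markers of other cell types summed to 1.89 RPKM in DMSO and to between 5.03 and 23.7 RPKM with the 4 HDAC inhibitors, led by the collagen gene Col1a1, which went from 0.02 to 11.7 RPKM with CI-994. With CI-994 the endothelial markers Pecam1 and Cdh5 went from 0.79 to 3.77 and from 0.01 to 3.17 RPKM, and the keratin gene Krt8 from 0.14 to 1.48 RPKM. With Vorinostat the astrocyte marker Gfap went from 0.29 to 3.57 RPKM and Krt8 to 1.49 RPKM. Of the 12, Epcam and Alb were at or below 0.04 RPKM with all 4, and Aqp4, Ptprc, Cd68, Col1a2 and Myh6 at or below 0.81 RPKM. The neuroblastoma markers summed to between 1768 and 2321 RPKM with these inhibitors. Their part in the chaperone results was not tested.

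BRD4884 and BRD6688 are both derivatives of CI-994 and were given at the same dose, so they could be compared directly, in a contrast added after the values above were seen. Of the 49 members, 7 were higher and 1 was lower with BRD4884 than with BRD6688, against 17.3% and 10.7% of all genes. Hspa5 was higher with BRD4884 by 0.59 ± 0.09 on the log2 scale (95% interval 0.39 to 0.79, limma adjusted p = 0.0068), and Dnajc12 by 0.79 ± 0.18 (0.40 to 1.18, adjusted p = 0.011). Hspb8, a small heat shock protein of the autophagy pathway, was higher by 0.63 ± 0.13 (adjusted p = 0.009), and Dnajc2 was lower by a log2 difference of -0.27 ± 0.08 (adjusted p = 0.031). For the other ER chaperones the difference was not past the test: it was 0.02 for Hsp90b1 with a 95% interval of -0.14 to 0.18, -0.30 for Dnajc3 with an interval of -0.58 to -0.03 and -0.46 for Dnajb9 with an interval of -0.90 to -0.01. For Hspa9 the interval was -0.19 to 0.07 and for Hsph1 -0.15 to 0.13. CI-994 was given at another dose, and no pair with it was tested.

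Among the other compounds the inhibitors of microexon splicing T5985871 (6.7 uM), AW00693 (5 uM), T5635931 (6.7 uM) and T5758020 (6.7 uM) raised Hsph1. They differed in the other members of the heat-inducible list. Each has 1 library, which was assumed to vary like the replicated groups, and the 4 comparisons share the DMSO libraries. With T5985871 15 members rose and 17 fell, against 18% and 36.8% of all genes. With AW00693 11 rose and 9 fell (11.2% and 21.7%), with T5635931 6 rose and 6 fell (8.1% and 13.9%), and with T5758020 6 rose and 5 fell (6.68% and 13.4%). In these libraries most changed genes fell, which depended on the scaling: with libraries scaled by their median ratio T5985871 had 18 members up and 10 down, AW00693 13 and 4, and T5758020 10 and 3, and the share of rising calls over all genes went from 32.8% to 51.9% with T5985871, from 34% to 51.5% with AW00693, from 36.8% to 51.6% with T5635931 and from 33.2% to 45.8% with T5758020.

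Hsph1 rose most clearly. Against 722, 674 and 691 junction RPM in DMSO it had 1920 with T5985871, 1509 with AW00693, 1386 with T5635931, 1166 with T5758020 and 872 with T5963258, a further inhibitor. The log2 changes were 1.47 ± 0.07 (limma adjusted p = 3.6e-08), 1.12 ± 0.07 (7.7e-07), 1.0 ± 0.07 (4.1e-06), 0.75 ± 0.07 (4.4e-05) and 0.33 ± 0.07 (0.032). It was the only member called with T5963258, and that call was lost without any 1 of the DMSO libraries A, B and C (adjusted p = 0.057, 0.097 and 0.075). In RPKM it went from 151 in DMSO to 375, 324, 311, 246 and 185 in the same order. Hsph1 also rose with the inhibitor listed under a number alone, to 848 junction RPM, a log2 change of 0.29 ± 0.07.

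Among the other cytosolic members of the heat-inducible list, Dnajb1 and the constitutive Hsp90ab1 also rose with T5985871. Dnajb1 had 141 junction RPM against 71.7 to 74.2 in DMSO, a log2 change of 0.96 ± 0.10 (adjusted p = 8.3e-06), and it also rose with AW00693 (98.1) and T5635931 (104). With T5758020 its change of 0.24 was not past the test (adjusted p = 0.12). Hsp90ab1 had 24314 against 13011 to 14028 in DMSO, a log2 change of 0.86 ± 0.08 (adjusted p = 2.2e-06), while its change with T5758020 was 0.05 (adjusted p = 0.67). Hsp90aa1, the inducible Hsp90, was at 1305 RPKM in DMSO and at 1370.2, 1287, 1137 and 1072 RPKM with T5985871, AW00693, T5635931 and T5758020, log2 ratios of 0.07, -0.02, -0.20 and -0.28. Dnaja2, a J partner of Hspa8 outside the heat-inducible list, rose by 0.55 ± 0.07 with T5985871 (adjusted p = 3.6e-05) and by 0.22 to 0.38 with the other three, although the call with T5635931 (adjusted p = 0.049) was lost without any 1 DMSO library. By RPKM, Dnaja1 was at 271 in DMSO and at 372, 391, 362 and 374 with T5985871, AW00693, T5635931 and T5758020, and Hspa8 was at 1906 and at 2058, 1986, 2138 and 1893.

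ER members went both ways, as calls over all genes did. Of 13, 5 rose and 5 fell with T5985871, 4 and 3 with AW00693, 1 and 2 with T5635931, and 2 and 3 with T5758020, and with the median ratio scaling 8 and 4, 4 and 1, 1 and 2, and 4 and 1. Before that scaling, 18% of all genes rose and 36.8% fell with T5985871, and 11.2% and 21.7% with AW00693. With T5635931 the shares were 8.1% and 13.9%, and with T5758020 6.68% and 13.4%. After that scaling, 2871 of all 10689 genes rose and 2664 fell with T5985871, and 1718 and 1616 with AW00693. With T5635931 the counts were 1192 and 1120, and with T5758020 1001 and 1185. Hspa5 had 1593 junction RPM with T5985871, 1184 with AW00693 and 1004 with T5635931 against 711 to 748 in DMSO. The log2 changes were 1.13 ± 0.11 (limma adjusted p = 2.9e-06), 0.70 ± 0.11 (adjusted p = 0.0004) and 0.46 ± 0.11 (adjusted p = 0.0088). With T5758020 it had 910.2 and was not past the test (adjusted p = 0.052). Hsp90b1 rose with T5985871 (0.56 ± 0.08, adjusted p = 0.00011) and AW00693 (0.51 ± 0.08, adjusted p = 0.00071), and its changes with the other two were not past the test (adjusted p = 0.12 and 0.062). Dnajc10 fell with all 4, by 0.25 to 0.49 on the log2 scale, although the calls with AW00693 and T5758020 were lost with the median ratio scaling (adjusted p = 0.31 and 0.12). Both calls were also lost without any 1 DMSO, BRD4884, BRD6688 or CI-994 library. In mitochondria Hspa9 rose with each of these compounds, to 2181, 1703, 1601 and 1635, by 0.32 to 0.77 on the log2 scale. The chaperonin did not stand apart: Hspd1 was at 958, 1221, 1099 and 1135 RPKM and Hspe1 at 566, 602, 479.6 and 552 RPKM, near their DMSO values. T5985871 lowered Dnajc11, from 395 to 404 in DMSO to 203, a log2 change of -0.98 ± 0.09 (adjusted p = 1.9e-06).

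Some J proteins fell with these compounds. Dnajb14, an ER membrane J protein, had 11.6, 7.87 and 12.3 junction RPM in DMSO and 2.93, 3.30, 3.25 and 3.39 with T5985871, AW00693, T5635931 and T5758020. The log2 changes were -1.82 ± 0.25 (limma adjusted p = 6.4e-05), -1.65 ± 0.25 (0.00042), -1.67 ± 0.25 (0.00075) and -1.61 ± 0.25 (0.00098). Dnajb5, a cytosolic J protein, had 10.1, 10.9 and 9.90 in DMSO and 2.53, 3.34, 5.52 and 4.66, and fell by 2.01 ± 0.17 on the log2 scale with T5985871 (adjusted p = 1.4e-06). Hspb11, a subunit of the intraflagellar transport machinery and not a chaperone of the ER or cytosol, had 16.6, 16.9 and 22.6 in DMSO and 6.62, 8.0, 7.41 and 9.65, and fell with each, by 0.94 to 1.48, with adjusted p = 0.068 for T5758020 without DMSO replicate C. Dnajc6, which had risen with HDAC inhibitors, fell with T5985871 to 3.89 (-1.48 ± 0.18, adjusted p = 1.9e-05). In RPKM 3 members were higher and 3 lower than DMSO by more than 2-fold with T5985871, where 10.1% and 8.92% of all genes were. The third that was higher, beside Hsph1 and Hspa5, was Hspa2, at 8.7 RPKM against 3.38.

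**Figure D5:**
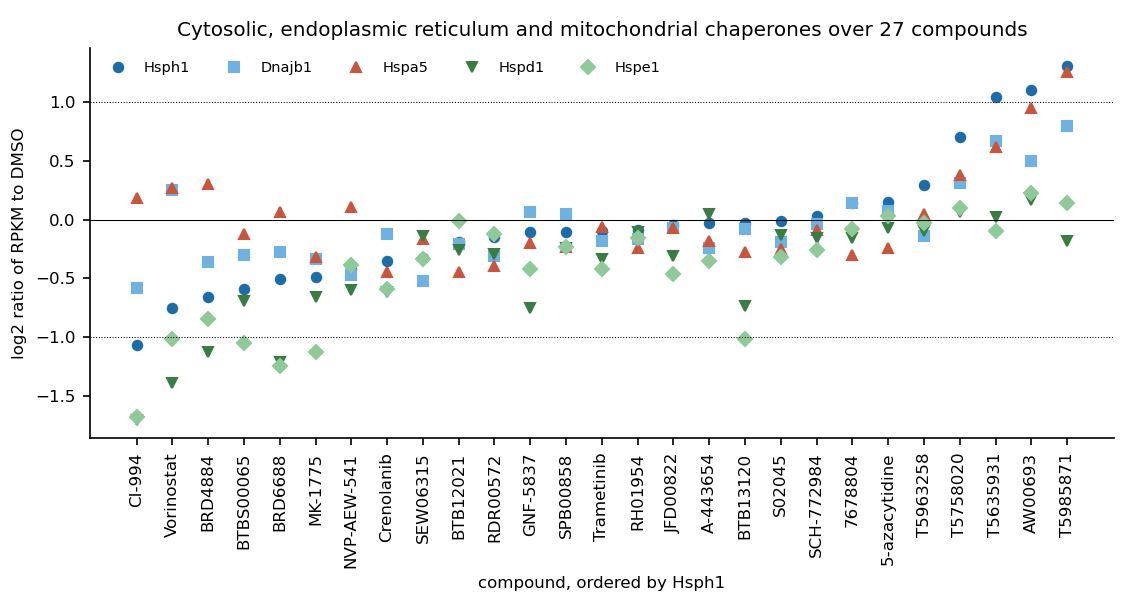
Log2 ratio of RPKM to DMSO (0.5 RPKM added) of Hsph1, Dnajb1, Hspa5, Hspd1 and Hspe1 with the 27 compounds, ordered by Hsph1. Hsph1 is at 1.31 with T5985871 and at -1.07 with CI-994, and Hspd1 at -1.71 with CI-994 lies below Hspa5 at 0.18.

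The remaining 19 compounds ranged from 0 to 20 members called. Over 931 pairs of a tested member and a compound 69 rose and 56 fell, against 8.65% and 6.4% of all pairs of a gene and a compound, and 4 of the 19 had no member called. GNF-5837 had 12 rises and 8 falls (26.1% and 17.8% of all genes), NVP-AEW-541 8 and 8 (20.7% and 6.16%), BTB13120 6 and 10 (16.2% and 18.5%), and Crenolanib 7 and 8 (19% and 10.9%). In RPKM, over 1245 pairs with the 22 compounds other than the HDAC inhibitors and T5985871, 6 were higher and 13 lower by more than 2-fold (3.53% and 2.65% over all genes), and 12 of the 22 had none.

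The widest changes with these compounds fell on a few members. NVP-AEW-541 (1 uM), an inhibitor of the IGF-1 receptor kinase, raised Dnajc12 to 24.7 junction RPM against 3.72 to 4.85 in DMSO, a log2 change of 2.47 ± 0.21 (limma adjusted p = 4.5e-06), and it also raised Dnajc22 (1.88 ± 0.33, adjusted p = 0.0011) and Dnajc6 (1.26 ± 0.18, adjusted p = 0.00023). GNF-5837 (500 nM), an inhibitor of Trk receptor kinases, raised Dnajc6 (1.42 ± 0.18, adjusted p = 4.9e-05) and Dnajb14 (0.98 ± 0.25, adjusted p = 0.0075), and its steepest fall was that of Dnajc2 (-0.61 ± 0.10, adjusted p = 0.00027). The PDGF and FLT3 receptor inhibitor Crenolanib (2 uM) lowered Dnajc12 to 2.1 (-1.07 ± 0.21, adjusted p = 0.002) and Hsp90b1 to 1284 (-0.58 ± 0.08, adjusted p = 0.00029). BTB12021 (20 uM) lowered Hspa5 to 494 (-0.56 ± 0.11, adjusted p = 0.007) and Hsp90b1 to 1356 (-0.50 ± 0.08, adjusted p = 0.0041). BTB13120 (625 nM) also lowered Hspa5, to 527, but raised Dnajb9 to 11.6 (0.87 ± 0.24, adjusted p = 0.015) and Dnajc3 to 79.1 (0.67 ± 0.15, adjusted p = 0.0054). It raised Hspb6 (1.35 ± 0.33, adjusted p = 0.0091) and lowered Hspb11 (-1.13 ± 0.26, adjusted p = 0.0071) and Dnajc15 (-0.61 ± 0.16, adjusted p = 0.014), and Hspb2 was at 0.91 RPKM with it. Dnajb9 rose further with BTBS00065 (2.5 uM), to 14.2 (1.17 ± 0.24, adjusted p = 0.003).

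The readouts were compared for the members called. Of 143 calls with HDAC inhibitors, 138 had an RPKM ratio on the same side of DMSO, and 142 once centred. Of 75 calls with T5985871, AW00693, T5635931 and T5758020, 72 had the same side and 71 once centred, and of 125 calls with the other 19 compounds 120 and 125. Both come from the same libraries and are not independent evidence.

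Splicing within the chaperone genes changed in few events. An event was counted where percent spliced in (exons) or percent intron retention differed by at least 10 points from the DMSO mean and lay outside the range of the DMSO libraries. For exon events 52 of 6992 pairs of an event and a compound were counted (0.744%), against 1.41% over all genes, and for introns 14 of 9543 (0.147%) against 0.536%. Dnajc27, which joins a J domain to a Rab-like GTPase, had 14 of them, Dnajc4 12 and Dnajb14 11. An exon of 190 nt in Dnajc27 (chr12:4107159-4107348, mm9) was included at 83.9%, 83.6% and 91.1% in the DMSO libraries and at 59.3% with RDR00572 (2.5 uM), a difference of -26.9 points, and it was counted lower with 12 compounds and higher with 2. An exon of 134 nt in Dnajc4 (chr19:7063913-7064046, mm9) was included at 64.3%, 57.8% and 58.7% in DMSO and at 80.4% with GNF-5837, and was counted higher with 4 compounds and lower with 2. In Dnajb14 an exon of 173 nt (chr3:137568849-137569021, mm9) was included at 72.6%, 77.6% and 82.1% in DMSO and at 58.6% with SPB00858 (20 uM), and was counted lower with 6 compounds and higher with 5, so it had no common direction. Retention of an intron of Hspb6 was 17.4%, 7.9% and 12.9% in DMSO and 34.1% with T5758020. An exon of Dnajc1 went from a DMSO mean of 92% to 70.7% with JFD00822, one of Dnajc17 from 96.7% to 76.1% with MK-1775, one of Dnajb4 from 89.7% to 70% with the compound listed under a number alone, and one of Dnajc6 from 99% to 82.5% with RDR00572. An exon of Dnajc24 went from 79.8% to 92.6% with SEW06315, and retention of an intron of Hspa12a from 3.6% to 20% with T5985871. At least 27 reads supported each of these values, each compound here has 1 library, and no test was made.

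Partners that work with these chaperones gave a comparison on the same libraries. In the cytosol, 23 partners were tested, among them the subunits of the chaperonin TRiC, and 5 rose and 15 fell with Vorinostat, 3 and 19 with CI-994, 3 and 14 with BRD4884, and 1 and 14 with BRD6688, where 35.6%, 36.7%, 20.2% and 25.7% of all genes fell. Tcp1, a TRiC subunit, fell by 0.81 ± 0.07 on the log2 scale with CI-994 (limma adjusted p = 2.5e-07), whereas Bag3, a co-chaperone of Hsp70 in autophagy, rose by 1.44 ± 0.12 (adjusted p = 1.6e-07). With T5985871, 13 of the 23 rose and 2 fell (18% and 36.8% of all genes), with Bag3 at 1.88 ± 0.15 (adjusted p = 8.7e-07). Of 15 ER partners, 12 rose and 2 fell with T5985871, including the cofactors Sdf2l1 (1.31 ± 0.21, adjusted p = 0.00018) and Creld2 (0.99 ± 0.09, adjusted p = 2.8e-06) and the stress gene Herpud1 (1.17 ± 0.13, adjusted p = 8.6e-06), while Xbp1, a transcription factor of the unfolded protein response, fell (-1.07 ± 0.21, adjusted p = 0.00082). Of these 15, 6 rose and 5 fell with Vorinostat, 8 and 2 with CI-994, 12 and 1 with BRD4884, and 8 and 2 with BRD6688, where 40.3%, 40.1%, 40.0% and 39.8% of all genes rose. Of 10 mitochondrial partners, 3 rose and 4 fell with Vorinostat, and 8 fell with CI-994, 4 with BRD4884 and 6 with BRD6688 with none rising. The Vorinostat share is near that of all genes. Trap1, the mitochondrial Hsp90, fell by 0.75 ± 0.07 with CI-994 (adjusted p = 3.4e-07). Of these partners Calr, Canx, Creld2 and Pdia6 hold the ER stress motif in their promoter window and Chordc1 the heat shock motif, out of 42 partners with a window.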

How the data were processed

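PolyA+ RNA was measured in 34 N2A libraries (24 h of treatment). The authors deposited RPKM per gene, with replicates merged, from Salmon and tximport. The submitters' processing notes name Salmon 0.10.2, edgeR and mm9. The authors deposited percent spliced in and percent intron retention per library from vast-tools, with reads per junction. Columns holding the authors' fold changes, p-values and FDR, and their table of differential splicing, were not used. Groups followed the labels. The members, the promoters shown and the gene lists were chosen with earlier results of these data known.

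RPKM gave log2 ratios with 0.5 RPKM added, counted past 2-fold where either value exceeded 1 RPKM. Spliced junction reads were summed per gene, divided by the library total and tested as log2 values (0.5 reads added, mean of at least 20 reads) with limma 3.58.1 in R 4.3.3, in 1 fit over all libraries with a mean per condition, residual df 6 and Benjamini-Hochberg adjustment over 10689 genes. The procedure was tested on simulated data. The methods call HDAC inhibitor libraries biological replicates. The labels do not say that libraries of a group were separate cultures, so p-values measure the spread between these samples, and counting intervals are not given. That spread is shared by all replicated groups in the fit, so for Vorinostat, whose libraries differed most, the p-values are likely too small. Replicate letters did not pair the samples.

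Named were the heat-inducible list, the 3 highest members of each compartment, the 10 widest ranges, the largest changes for each compound, and the 10 largest splicing differences, 1 per gene. Genes named outside these rules illustrate a compartment or list and were chosen after their values were seen. Alternatives were the pseudocount, the filters, the scaling, the fold limit, each replicate left out, a replicate block and another set of junction reads.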

Additional observations from a re-analysis of the deposited data

How the results depend on the processing

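In RPKM, a pseudocount of 0.1 gave 10 rather than 6 higher pairs with the 22 other compounds, and a pseudocount of 1 gave 3 higher members with BRD6688. With members over the limit in DMSO only, an alternative chosen after seeing the data, CI-994 had 4 higher members. With over 5 RPKM required, CI-994 had 4 higher members and the 22 compounds 8 lower pairs. Centred on the median gene, CI-994 had 14 higher and 7 lower members, BRD4884 0 lower, T5985871 6 higher, and the 22 compounds 13 higher and 8 lower pairs. At 1.5-fold the total was 237 in place of 78, with 23 lower for Vorinostat, 14 higher and 24 lower for CI-994, 14 lower for BRD4884, 10 higher and 12 lower for BRD6688, 8 higher and 9 lower for T5985871, and 37 higher and 69 lower for the 22 compounds.

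With each DMSO or HDAC inhibitor library left out in turn, the 143 junction calls with HDAC inhibitors became 136 to 152. For the 23 other compounds, whose error comes from these libraries, 107 rises became 81 to 177 and 93 falls became 67 to 150. Both maxima, 177 and 150, came without either Vorinostat library, whose spread is the widest. With the replicate letter as a block (replicate block, DMSO and HDAC inhibitor libraries) there were 140 calls, against 145 without it. Correlations of same-letter deviations ran from -0.365 to 0.1, so the letters share only a name. The median junction change of the ER, mitochondrial and cytosolic members kept its sign with each HDAC inhibitor under all alternatives run. That of unassigned members turned to -0.16 with Vorinostat, -0.48 with CI-994 and -0.20 with BRD6688 when a mean of 100 reads was required, which leaves fewer of them. In RPKM the ER median with CI-994 did not, at -0.04 as deposited and 0.40 centred.

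For splicing, 15 points left 19 exon events and 5 introns, 24 in all, in place of 52, 14 and 66. Without the balance filter there were 61 introns and 130 events in all. Without DMSO replicate C there were 28 introns. For single named members, 37 RPKM values crossed the 2-fold limit under an alternative and 395 did not, and of the junction values 63 lost the call and 42 gained it. None reversed.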
